A study of Homo sapiens with 10 samples.

Results

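The genes described here encode the enzymes and transporters that take glucose to pyruvate, lactate or acetyl-CoA, with the pentose phosphate branch, the gluconeogenic enzymes and the shuttles that reoxidise cytosolic NADH. They were chosen by gene symbol from a list of 50, and all 50 were found among the 60554 genes of the tables. Of these, 43 passed the level filter, which required a protein-coding transcript and an RPM (reads scaled to the library total) above 3 in at least 20% of the libraries, as did 11640 genes in all. The question asked of them was whether the lower GAPDH level of the libraries carrying guides against LHFPL3-AS2 was shared by the neighbouring steps.

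The RNA came from Caco-2 cells, a human colon carcinoma line that forms an absorptive epithelium in culture. All 10 libraries derive from 1 monoclonal Caco-2 line that was selected with puromycin and expresses dCas9-KRAB, a Cas9 without nuclease activity joined to a repressor domain, from a lentiviral plasmid. That line was infected again with a hygromycin-resistant pKLV plasmid that expressed from its U6 promoter guide g1 (3 libraries) or guide g2 (2 libraries) against LHFPL3-AS2, and an empty guide plasmid gave the control, gCtl (5 libraries). The cells were seeded as monolayers, and the study describes the cells with either guide as less confluent than the controls. Its supplementary methods state, in contrast, that Caco-2 cells were fully confluent in every experiment. The libraries were Lexogen QuantSeq, in which reads start near the 3′ end of polyadenylated RNA, and the labels do not say whether libraries of a group were separate cultures, so p-values measure the spread between these libraries, which may be technical.

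Glycolysis converts glucose to pyruvate in a fixed series of cytosolic steps. Hexokinase traps glucose, phosphofructokinase commits it to breakdown, aldolase and triose phosphate isomerase yield glyceraldehyde phosphate, and GAPDH, phosphoglycerate kinase, phosphoglycerate mutase, enolase and pyruvate kinase carry that to pyruvate. Lactate dehydrogenase and the monocarboxylate transporters remove pyruvate as lactate, while the mitochondrial pyruvate carrier and the pyruvate dehydrogenase complex feed it to the citric acid cycle. GAPDH is widely used as a reference gene because most cells hold much of its mRNA, and the study used it as the reference of its qPCR.

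Between 3838803 and 8730468 estimated counts were held per library. LHFPL3-AS2, the targeted antisense RNA, was held by 4.39 to 44 counts per library, at 1.73, 0.84, 3.73, 1.73 and 3.12 RPM in gCtl, 3.07, 3.95 and 2.03 with g1 and 2.16 and 6.01 with g2. Its mean was 2.23 ± 1.17 (SD, n = 5) in gCtl against 3.45 ± 1.63 (SD, n = 5) in the libraries labelled knockdown, that is g1 and g2 together, a difference of 0.47 on the log2 scale (exact two-sided permutation test, p = 0.19). The mean of the targeted RNA was thus not lower in the libraries labelled knockdown, and the group names below are those of the labels only. The study also measured this RNA by qPCR, which is not analysed here. Replicate numbers follow the order in which libraries are listed and only name them. The 12 epithelial marker genes summed to between 2025 and 2562 CPM (counts scaled to the library total after TMM adjustment) in gCtl and between 1955 and 2512 CPM in the libraries labelled knockdown, with the enterocyte hydrolase ALPI at 0 to 0.92 CPM. SI, the sucrase of differentiated enterocytes, held 2 counts in gCtl as a whole and 56 in the knockdown-labelled libraries, at 0 to 0.35 and 1.02 to 3.04 CPM without overlap. Its part in the results below was not tested. The other epithelial markers of the 12 overlapped between the groups. ALPI was at 0 to 0.92 CPM in gCtl and 0.12 to 0.42 CPM in the libraries labelled knockdown, and FABP1 at 9.15 to 21.5 and 7.31 to 42.3 CPM. Markers of other cells (10 genes, of which PECAM1 and COL1A1 passed the filter) summed to 6.39 to 12.5 CPM in gCtl and 9.02 to 21.2 CPM in the libraries labelled knockdown. One control, gCtl replicate 5, lay nearer to the libraries labelled knockdown than the other controls did for GAPDH and several of its neighbours, and results that rest on it are given without it too. Fewer cells of a kind and less RNA per cell cannot be told apart in such bulk RNA.

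CPM are given after TMM scaling throughout. Fold changes are on the log2 scale with their standard error (SE), and adjusted p comes from edgeR's quasi-likelihood test over all 11640 genes. A gene was called higher or lower where the adjusted p did not exceed 0.05 and the fold was 1.5 or more. In the libraries labelled knockdown 9 of the 43 tested genes of the list were lower (20.9%) and 2 were higher (4.65%), where 11% of all tested genes were lower and 8.14% higher. The 9 were PFKM and PFKP of phosphofructokinase, GAPDH, PGAM1 and ENO1 of lower glycolysis, TALDO1 and PGD of the pentose phosphate pathway, PFKFB3 and BSG, and the 2 were SLC16A3 and PDP1. Of the 9, GAPDH was known to be lower when the list was chosen. The change was negative for 31 of the 43, with a median of -0.20 against a median of 0.02 over all tested genes.

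**Figure D1:**
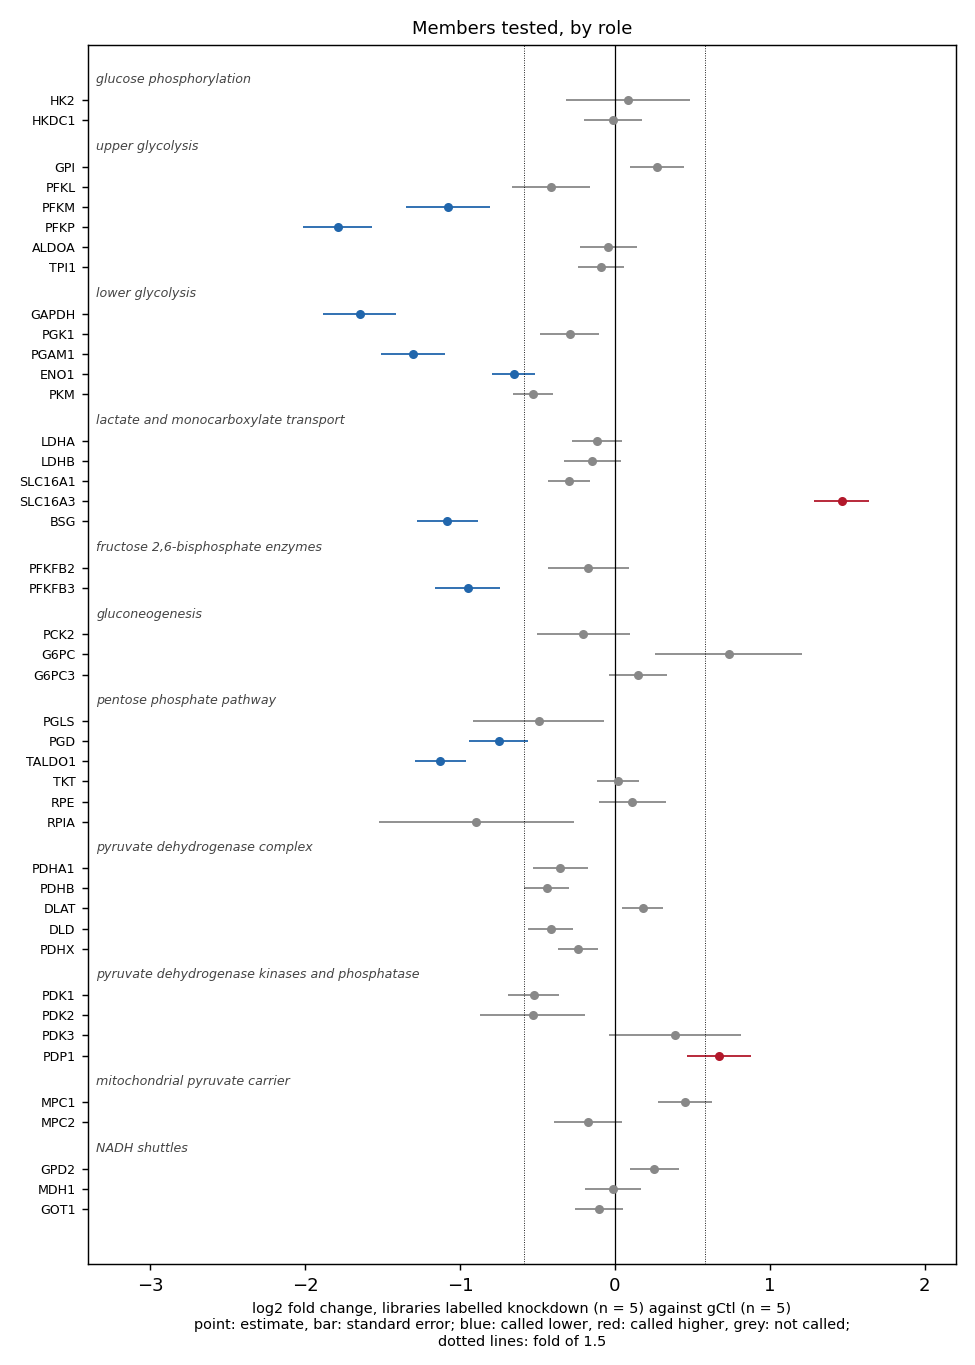
Log2 fold change (x axis, point with SE as bar) of the 43 tested genes, by role (y axis), in the libraries labelled knockdown (n = 5) against gCtl (n = 5); blue is called lower, red called higher and grey not called. GAPDH (-1.65), PFKP (-1.79) and PGAM1 (-1.30) lie far to the left, while ALDOA (-0.04) and TPI1 (-0.09) lie at 0 and SLC16A3 (1.47) is alone on the far right.

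GAPDH (ENSG00000111640.14; GRCh38 chromosome 12, 6533927 to 6538374, plus strand), the enzyme that oxidises glyceraldehyde phosphate and makes NADH, was measured at 404.5, 399, 277, 359 and 162 CPM in gCtl. It stood at 101, 96.1 and 95.1 CPM with g1 and at 147 and 72.7 CPM with g2. All 5 libraries labelled knockdown were below all 5 controls, and the lowest control, gCtl replicate 5, was close to the highest g2 library. Group means were 321 ± 102 CPM (SD, n = 5) in gCtl against 102 ± 27.4 CPM (SD, n = 5) in the knockdown-labelled libraries. GAPDH fell by 1.65 ± 0.24 (SE) on the log2 scale with an adjusted p of 0.000352 by edgeR, and without gCtl replicate 5 by 1.82. With g1 alone it fell by 1.72 ± 0.28 (adjusted p = 0.000719, edgeR) and with g2 alone by 1.54 ± 0.32 (adjusted p = 0.00309, edgeR).

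The steps just before GAPDH did not share that fall. Aldolase A (ALDOA), which splits the hexose into trioses, was at 73.5, 69.6, 44.1, 63.1 and 51.0 CPM in gCtl, at 76.5, 62.3 and 49.8 CPM with g1 and at 64.7 and 39.2 CPM with g2. The groups overlapped over most of their range, and the log2 difference was -0.04 ± 0.19 (SE) with a 95% confidence interval from -0.44 to 0.35 (adjusted p = 0.893, edgeR), an interval that does not reach the fall of GAPDH. Triose phosphate isomerase (TPI1), which interconverts the trioses, was at 478, 547, 354, 439.9 and 423 CPM in gCtl, 477, 502 and 394 CPM with g1 and 384 and 354 CPM with g2. Its log2 difference was -0.09 ± 0.15 (SE) with an interval from -0.40 to 0.23 (adjusted p = 0.70, edgeR). Both signs were unstable near 0, as the differences became 0.05 for ALDOA and 0.12 for TPI1 once trends on transcript length and GC content were removed, an alternative chosen after the data were seen.

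Phosphoglycerate kinase (PGK1), which follows GAPDH and makes ATP, was at 191, 187, 138, 176 and 145 CPM in gCtl and at 159, 154 and 156 CPM with g1. With g2 it was at 144 and 72.4 CPM, so that g2 replicate 2 lay far under every other library. PGK1 did not pass the test in the libraries labelled knockdown (log2 -0.29 ± 0.19 SE, interval -0.70 to 0.12, adjusted p = 0.283, edgeR), and was called lower with g2 alone (log2 -0.63, adjusted p = 0.0465, edgeR).

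Phosphoglycerate mutase (PGAM1; chromosome 10, 97426160 to 97433441, plus strand), which moves the phosphate within phosphoglycerate, shared the fall of GAPDH. It was at 82.5, 78.6, 66.6, 74.8 and 49.4 CPM in gCtl, at 30.7, 38.4 and 32.1 CPM with g1 and at 25.4 and 15.99 CPM with g2. No library labelled knockdown reached the lowest control. PGAM1 fell by 1.30 ± 0.21 (SE) on the log2 scale (adjusted p = 0.000654, edgeR), by 1.06 with g1 and by 1.77 with g2. Its processed pseudogenes, near-identical copies that can take reads, held at most 6.12% of the summed counts in any library, and adding them to their parent changed no count of calls.

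Enolase (ENO1; chromosome 1, 8861000 to 8879250, minus strand), which makes phosphoenolpyruvate, was at 362, 362, 251, 298 and 264 CPM in gCtl, at 212, 184 and 194 CPM with g1 and at 217 and 171 CPM with g2. The groups did not overlap, and ENO1 fell by 0.65 ± 0.14 (SE) on the log2 scale (adjusted p = 0.00452, edgeR). The call was lost, at a log2 difference of -0.51, when trends on transcript length and GC content were removed. Pyruvate kinase (PKM), the last step, was at 124, 119, 106, 107 and 97.8 CPM in gCtl, 90.6, 74.9 and 66.7 CPM with g1 and 80.5 and 71.8 CPM with g2. All 5 libraries labelled knockdown were below every control, yet its log2 difference of -0.53 ± 0.13 (SE, adjusted p = 0.00832, edgeR) lay under the fold of 1.5. The transcript with the most PKM counts took between 19.9% and 65.8% of the gene's counts in a library, so that the muscle and other forms were not separated.

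Lactate dehydrogenase A (LDHA), which turns pyruvate into lactate and restores NAD for GAPDH, was at 442.5, 414, 337, 459 and 331 CPM in gCtl, 314, 493 and 349 CPM with g1 and 379 and 296 CPM with g2. The groups overlapped, and the log2 difference was -0.11 ± 0.16 (SE) with an interval from -0.45 to 0.22 (adjusted p = 0.637, edgeR). LDHB, the subunit favoured in tissues that use lactate, differed by -0.15 (adjusted p = 0.598, edgeR). In lower glycolysis as a whole 3 of the 5 tested genes were lower (60%, where 11% of all tested genes were), and the median log2 difference of the 5 was -0.65. GAPDH, known to be lower when the list was chosen, is among the 3, so this share is no test of a shared fall.

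**Figure D2:**
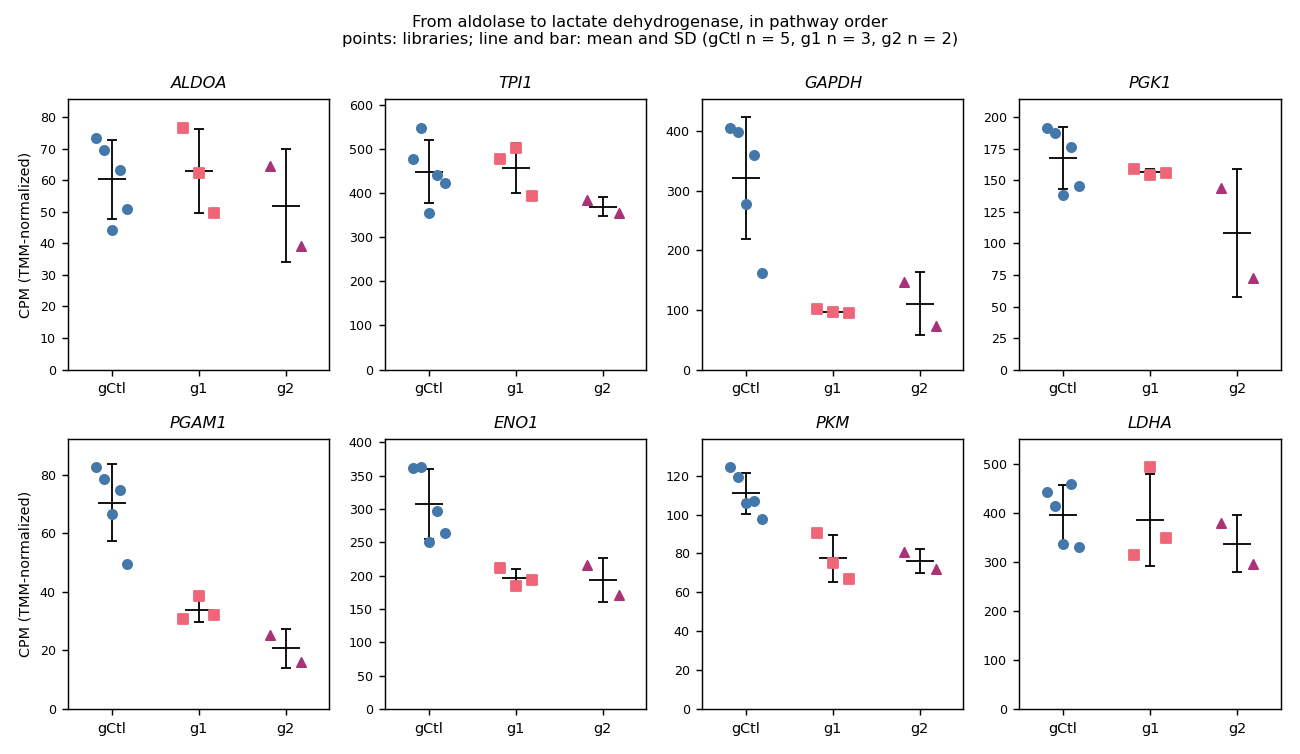
CPM (y axis, TMM-normalized, from 0) of 8 genes in pathway order from aldolase to lactate dehydrogenase in gCtl, g1 and g2 libraries (x axis); each point is 1 library and the line and bar are the mean and SD (n = 5, 3 and 2). GAPDH, PGAM1, ENO1 and PKM show all g1 and g2 points below the controls, whereas ALDOA, TPI1, PGK1 and LDHA points overlap.

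Because a ratio within a library needs no scaling between libraries, GAPDH was also set against each of 7 neighbours as a log2 ratio of estimated counts with 1 count added to each. GAPDH to ALDOA was 2.36 ± 0.39 (SD, n = 5) in gCtl against 0.81 ± 0.30 (SD, n = 5) in the knockdown-labelled libraries, a difference of -1.55. The corresponding differences were -1.52 against TPI1, -1.48 against LDHA, -1.27 against PGK1, -1.08 against PKM and -0.97 against ENO1. Each of these 6 had an adjusted p of 0.0185 (exact two-sided permutation test, Benjamini-Hochberg over the 7 ratios), where the smallest unadjusted p that 5 against 5 libraries allow is 0.00794. The groups did not overlap for ALDOA, PGK1 and LDHA, and met at gCtl replicate 5 for TPI1, ENO1 and PKM. Against PGAM1 the ratio differed by -0.27, from 2.13 ± 0.26 to 1.86 ± 0.49 (SD, n = 5 each), and the exact permutation test gave p = 0.302 before and after adjustment. That pooled value joins guides that lay apart. With g1 the ratio was 1.710, 1.318 and 1.564, under the lowest control at 1.712. With g2 it was 2.529 and 2.176, where the highest control was 2.341. The difference between the guides in this ratio was not tested. The fall of GAPDH was thus larger than that of ENO1 and PKM within the same libraries. A difference from PGAM1 was not detected with the guides pooled. GAPDH enters all 7 ratios and was known to be lower in these libraries when they were chosen. These p-values are therefore no independent test of its fall.

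**Figure D3:**
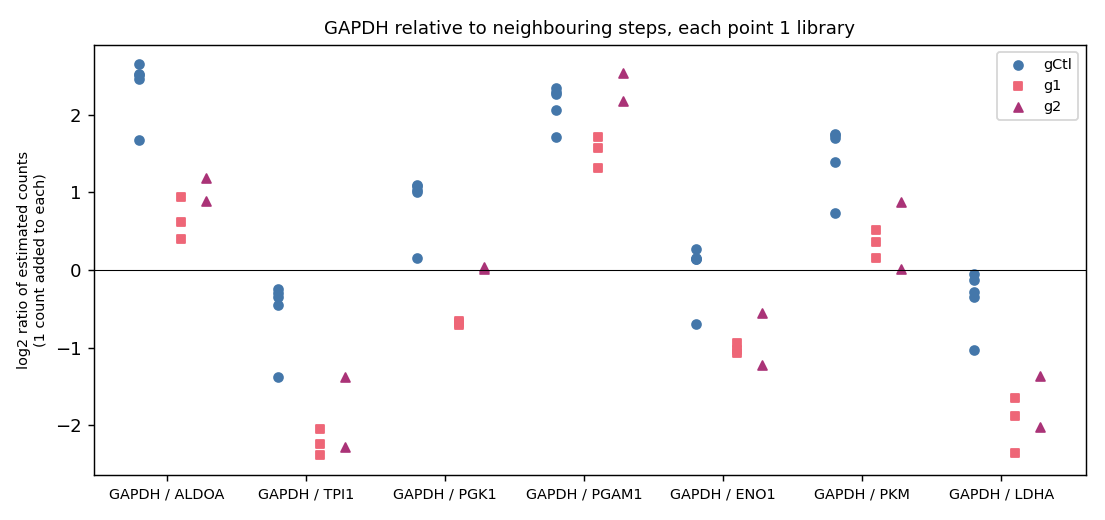
Log2 ratio of GAPDH to each of 7 neighbouring steps (x axis) by library (y axis, estimated counts with 1 added), for gCtl (circles, n = 5), g1 (squares, n = 3) and g2 (triangles, n = 2). The g1 and g2 points lie under the controls for ALDOA, PGK1 and LDHA, and touch 1 control for TPI1, ENO1 and PKM. For PGAM1 the g1 points lie at or under the lowest control, and the g2 points lie among or above the controls.

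To set a step called lower in the pooled comparison beside steps not called there, 250 bases upstream of the start of ENO1, PGK1 and LDHA are shown. PGK1 was called lower with g2 alone. These genes were taken since their windows lie within 150 bases of the annotated start of the transcript that held most of each gene's counts. The sequences are RefSeq's (GRCh38.p14), at chr1:8878687-8878936 on the minus strand for ENO1, chrX:78103998-78104247 on the plus strand for PGK1 and chr11:18394313-18394562 on the plus strand for LDHA. Capitals mark the core of the hypoxia response element, ACGTG or GCGTG on either strand, where the palindrome CACGTG counts once on each strand and is also the E-box.
ENO1: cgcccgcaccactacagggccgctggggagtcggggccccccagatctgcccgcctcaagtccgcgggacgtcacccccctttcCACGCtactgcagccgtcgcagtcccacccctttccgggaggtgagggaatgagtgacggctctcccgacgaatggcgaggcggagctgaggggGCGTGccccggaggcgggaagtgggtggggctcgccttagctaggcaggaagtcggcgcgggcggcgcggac
PGK1: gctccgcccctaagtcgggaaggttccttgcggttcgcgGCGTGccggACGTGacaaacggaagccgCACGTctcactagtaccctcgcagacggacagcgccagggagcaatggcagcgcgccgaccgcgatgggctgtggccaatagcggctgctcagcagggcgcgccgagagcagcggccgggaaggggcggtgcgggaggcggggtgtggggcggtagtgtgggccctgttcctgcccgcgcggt
LDHA: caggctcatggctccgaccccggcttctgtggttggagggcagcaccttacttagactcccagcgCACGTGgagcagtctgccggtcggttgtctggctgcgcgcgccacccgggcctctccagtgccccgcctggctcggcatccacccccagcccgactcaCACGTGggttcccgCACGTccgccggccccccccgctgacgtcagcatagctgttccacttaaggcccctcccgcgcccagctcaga
ENO1, which was called lower in the pooled comparison, held 2 cores, and PGK1 and LDHA, which were not called there, held 3 and 5. LDHA held the E-box 2 times and ENO1 and PGK1 did not hold it. At least 1 core stood in 43.2% of the 35116 RefSeq promoters and in 13 of the 22 genes of the list whose window lay that near. Among those 22 genes it stood in ENO1 and PGD but not in TALDO1 of the 3 called lower, and in 7 of the 14 tested and not called.

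Phosphofructokinase, the committed step, held the largest fall of the list. PFKP (ENSG00000067057.16; chromosome 10, 3066333 to 3137712, plus strand), the platelet-type subunit, was at 41.7, 26.8, 29.8, 34.2 and 27.4 CPM in gCtl, at 8.83, 6.96 and 14.8 CPM with g1 and at 6.99 and 7.85 CPM with g2. The highest library labelled knockdown, g1 replicate 3, was still below the lowest control. PFKP fell by 1.79 ± 0.22 (SE) on the log2 scale (adjusted p = 0.000132, edgeR), by 1.61 with g1 and by 2.10 with g2. The transcript with the most PFKP counts took 86.5% to 95.5% of the gene's estimated counts in gCtl and 48.8% to 85.1% in the knockdown-labelled libraries, without overlap. This share also did not overlap for PGK1 (72.5% to 80.3% against 85.8% to 99.2%), PDHA1 (43.9% to 56.0% against 32.0% to 35.9%) and G6PC3 (40.3% to 62.3% against 64.0% to 82.6%). Reads from the 3′ end need not tell transcripts of a gene apart, so these shares are estimates and need not be changes of form. How often such shares separate over all genes was not tested. PFKM, the muscle-type subunit, was at 16.2, 18.2, 12.2, 18.2 and 6.90 CPM in gCtl, 7.18, 8.08 and 8.45 CPM with g1 and 5.02 and 5.09 CPM with g2. It fell by 1.08 ± 0.27 (SE, adjusted p = 0.0107, edgeR) and overlapped only through gCtl replicate 5, without which it fell by 1.27. PFKL, the liver-type subunit, was at 10.7 ± 1.06 CPM (SD, n = 5) in gCtl, 9.72 ± 1.33 CPM (SD, n = 3) with g1 but 5.57 ± 2.53 CPM (SD, n = 2) with g2, and was called lower with g2 alone (log2 -0.95, adjusted p = 0.0267, edgeR).

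Scaled by transcript length and library total (TPM) the 3 subunits summed to 43.2 ± 5.63 TPM (SD, n = 5) in gCtl against 18.5 ± 5.18 TPM (SD, n = 5) in the knockdown-labelled libraries. PFKP made up 63.5% ± 6.62 of that sum in gCtl and 49.4% ± 14.5 in the libraries labelled knockdown, where it ranged from 32.3% to 71.9%. The shares overlapped between the groups while the sums did not. Division by length suits reads spread along a transcript better than reads from its 3′ end, so TPM orders the subunits only roughly.

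Bifunctional enzymes make and remove the fructose bisphosphate that activates phosphofructokinase. PFKFB3 was lower with both guides, and PFKFB2 was lower with g2 alone. PFKFB3, the form that mostly makes the activator, was at 16.2, 14.1, 16.4, 16.4 and 9.90 CPM in gCtl, 9.33, 6.59 and 8.33 CPM with g1 and 5.74 and 7.53 CPM with g2. All libraries labelled knockdown were below all controls, and PFKFB3 fell by 0.95 ± 0.21 (SE) on the log2 scale (adjusted p = 0.00512, edgeR). PFKFB2 (chromosome 1, 207034366 to 207081024, plus strand), a form regulated by phosphorylation, was at 39.1, 33.8, 33.6, 36.7 and 47.4 CPM in gCtl, at 51.9, 37.6 and 43.2 CPM with g1 and at 15.0 and 21.6 CPM with g2. Only the g2 libraries were low.

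Ahead of phosphofructokinase HK2, HKDC1 and GPI were tested and not called. These are too few genes to set against the 11% lower and 8.14% higher over all tested genes. HKDC1, a hexokinase domain protein, was the most abundant of the hexokinase genes per length at 13.7 ± 2.75 TPM (SD, n = 5) in gCtl, against 0.96 ± 0.37 TPM for HK2 and 0.33 ± 0.16 TPM for HK1. On the CPM scale HKDC1 differed by -0.01 and HK2 by 0.08 in log2. Glucose phosphate isomerase (GPI) differed by 0.27 in the pooled comparison and by 0.48 with g1 (adjusted p = 0.0347, edgeR), under the fold of 1.5.

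At the outlet, an exporter gene was higher and the gene of its chaperone lower. SLC16A3 (ENSG00000141526.14; chromosome 17, 82228397 to 82261129, plus strand), which encodes the lactate exporter MCT4, was at 7.01, 7.41, 6.49, 6.77 and 10.1 CPM in gCtl. It was at 21.3, 19.5 and 21.1 CPM with g1 and at 19.1 and 23.3 CPM with g2. It was the only gene of the list with every library labelled knockdown above every control, 1 of 43 (2.33%) where 7.13% of all tested genes had this order. SLC16A3 was higher by 1.47 ± 0.18 (SE) on the log2 scale (adjusted p = 0.000106, edgeR), by 1.45 with g1 and by 1.49 with g2. BSG (basigin; chromosome 19, 571277 to 583493, plus strand), the chaperone that carries MCT1 and MCT4 to the membrane, was at 59.5, 49.6, 52.6, 71.5 and 32.4 CPM in gCtl, 32.8, 25.8 and 21.7 CPM with g1 and 24.6 and 20.5 CPM with g2. Basigin mRNA fell by 1.08 ± 0.20 (SE, adjusted p = 0.00155, edgeR), and the groups met only at gCtl replicate 5, without which it fell by 1.23. SLC16A1, which encodes MCT1, was at 313 ± 26.3 CPM (SD, n = 5) in gCtl against 255 ± 42.2 CPM (SD, n = 5) in the knockdown-labelled libraries, and was not called (log2 -0.30, adjusted p = 0.129, edgeR).

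In the pentose phosphate pathway, which makes NADPH and ribose phosphate, 2 of 6 tested genes were lower (33.3%, where 11% of all tested genes were) and none higher (where 8.14% were). TALDO1 (ENSG00000177156.10; chromosome 11, 747329 to 765024, plus strand), the transaldolase of the non-oxidative branch, was at 37.6, 37.7, 36.7, 40.9 and 32.0 CPM in gCtl, 14.0, 18.5 and 15.1 CPM with g1 and 23.0 and 14.1 CPM with g2. No library labelled knockdown reached a control, and TALDO1 fell by 1.13 ± 0.16 (SE) on the log2 scale (adjusted p = 0.000383, edgeR). PGD, the dehydrogenase that releases carbon dioxide and the pathway's later NADPH, was at 28.7, 47.7, 28.4, 32.2 and 32.9 CPM in gCtl, 29.0, 19.4 and 17.8 CPM with g1 and 18.1 and 17.0 CPM with g2. PGD fell by 0.75 ± 0.19 (SE, adjusted p = 0.0113, edgeR), with g1 replicate 1 within the control range. Transketolase (TKT), the partner of transaldolase, ranged from 165 to 201 CPM in gCtl and from 141 to 218 CPM in the libraries labelled knockdown, a log2 difference of 0.02 ± 0.14 (SE, adjusted p = 0.929, edgeR). RPIA differed by -0.90 ± 0.63 (SE), PGLS by -0.49 ± 0.42 (SE) and RPE by 0.11, none of them called.

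**Figure D4:**
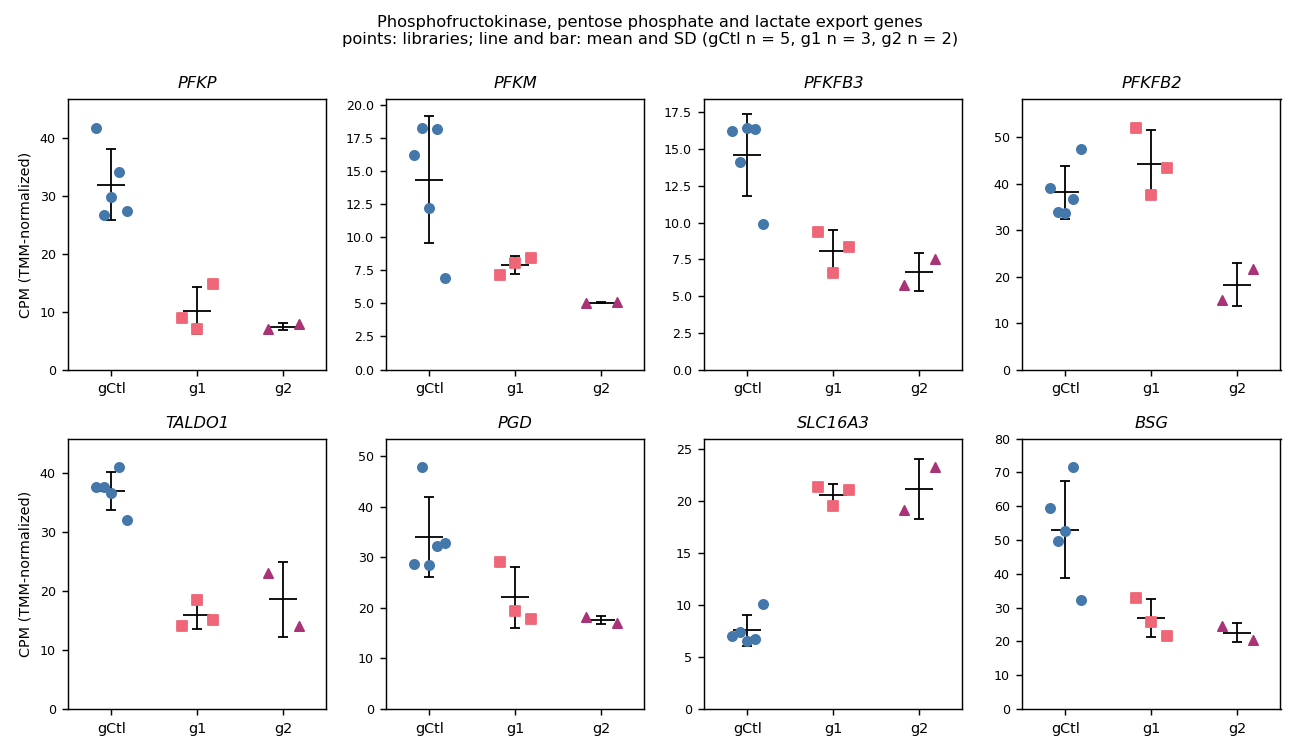
CPM (y axis, TMM-normalized, from 0) of 8 genes of phosphofructokinase, its regulators, the pentose phosphate pathway and lactate export in gCtl, g1 and g2 libraries (x axis), with each point 1 library and the line and bar the mean and SD (n = 5, 3 and 2). SLC16A3 is above the controls with both guides, PFKP, PFKFB3 and TALDO1 are below them, and PFKFB2 is below them with g2 only.

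Around the mitochondrion PDP1 was the only gene called in the pooled comparison. Over all tested genes 11% were lower and 8.14% higher, so counts over so few genes are no result about them. None of the 5 subunit genes of the pyruvate dehydrogenase complex was called in the libraries labelled knockdown, although 4 of 5 differences were negative and PDHB (log2 -0.44, adjusted p = 0.0396, edgeR) passed on p alone. With g2 alone 2 of the 5 were lower (40%, against 13% of all tested genes). PDP1, the phosphatase that switches the complex on, was at 13.0, 11.8, 11.9, 9.39 and 9.50 CPM in gCtl, 19.7, 10.3 and 16.6 CPM with g1 and 21.5 and 20.1 CPM with g2. PDP1 was higher by 0.67 ± 0.21 (SE) on the log2 scale (adjusted p = 0.029, edgeR), with g1 replicate 2 within the control range, and the call was lost in 10 of 22 alternatives, among them without gCtl replicate 5 (log2 0.61, adjusted p = 0.0608, edgeR). PDK1, a kinase that switches the complex off, was at 16.2 ± 0.67 CPM (SD, n = 5) in gCtl against 11.2 ± 1.52 CPM (SD, n = 5) in the knockdown-labelled libraries with no overlap. Its pooled log2 difference of -0.52 (adjusted p = 0.0315, edgeR) lay under the fold of 1.5, and with g1 alone it fell by 0.61 (adjusted p = 0.032, edgeR). MPC1 and MPC2 of the pyruvate carrier differed by 0.45 and -0.18, and GPD2, MDH1 and GOT1 of the NADH shuttles by 0.26, -0.01 and -0.10, none of them called. Among gluconeogenic genes G6PC, G6PC3 and PCK2 were tested and none was called in the pooled comparison.

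The 7 genes of the list that lay below the level filter were HK1, ALDOC, ENO2, PFKFB4, FBP1, PCK1 and PDK4. Each held between 5 and 37 counts over the 5 gCtl libraries and between 14 and 68 counts over the 5 libraries labelled knockdown, and their comparisons depended on the filter. In the 3 alternatives that tested PDK4 with all groups in the fit, this gene of a kinase that switches off the pyruvate dehydrogenase complex was called higher with g2 than in gCtl and than with g1, by log2 2.08 and 3.54 without the RPM filter (adjusted p = 0.0412 and 0.0182, edgeR). PDK4 was at 0.25, 0.18, 0.87, 0.24 and 1.93 CPM in gCtl, 0.17, 0 and 0.49 CPM with g1 and 2.87 and 3.49 CPM with g2, which is 19, 5 and 40 counts in all. Both g2 libraries were above every other library, and with only g1 and g2 in the fit the difference between the guides was not called (adjusted p = 0.0739, edgeR). PCK1, the cytosolic counterpart of PCK2, was called higher in the pooled comparison with the filter of edgeR (log2 1.44, adjusted p = 0.0468, edgeR) and not without the RPM filter (adjusted p = 0.0589, edgeR). The other genes below the filter were not called in these alternatives.

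By order of the libraries alone, 8 of the 43 tested genes had all 5 libraries labelled knockdown below all 5 controls (18.6%, against 8.33% of all tested genes). They were PFKP, PGAM1, ENO1, PKM, PFKFB3, TALDO1, PDK1 and GAPDH, the last known to be lower beforehand. With each guide alone against the same 5 controls, 10 genes of the list were lower with g1 (23.3%, against 9.91% of all tested genes) and 1 was higher (against 6.81%). With g2 15 were lower (34.9%, against 13% of all tested genes) and 3 were higher (6.98%, against 10.7%). Without g2 replicate 2, 6 were lower with g2 and 3 higher, and the lower genes among all tested fell in number from 1514 to 857. The median log2 difference over the list was -0.14 with g1 and -0.38 with g2. Lower with both guides were the 9 genes of the pooled comparison, and SLC16A3 was higher with both. The 2 comparisons share their controls, so they are not independent. How many of all tested genes were called with both guides, or with 1 only, was not counted. These overlaps are therefore no result about the list. PFKL, PGK1, PFKFB2, PCK2, PDHA1 and PDHB were called lower, and PDP1 and MPC1 higher, with g2 but not with g1. PDHA1, a subunit of the decarboxylase of the pyruvate dehydrogenase complex, averaged 127 ± 26.2 CPM (SD, n = 5) in gCtl, 114 ± 10.4 CPM (SD, n = 3) with g1 but 77.4 ± 10.01 CPM (SD, n = 2) with g2. PDHB, its partner, averaged 40.3 ± 4.91 CPM in gCtl, 31.9 ± 4.69 CPM with g1 and 26.2 ± 3.01 CPM with g2 (SD, the same n). MPC1 averaged 21.8 ± 2.19 CPM in gCtl, 27.5 ± 5.68 CPM with g1 and 33.5 ± 10.2 CPM with g2 (SD, the same n).

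A call with g2 and not with g1 is no test of a difference between the guides, and the direct comparison called only PFKFB2 and PCK2, both lower with g2 (4.65% of the 43, against 3.42% of all tested genes), and none higher (against 1.55%). PFKFB2 was lower with g2 than with g1 by a log2 difference of -1.27 ± 0.23 (SE, adjusted p = 0.00492, edgeR). PCK2 (chromosome 14, 24094053 to 24110598, plus strand), the mitochondrial enzyme that makes phosphoenolpyruvate from oxaloacetate, was at 21.5, 22.0, 21.1, 17.6 and 23.6 CPM in gCtl and at 23.7, 20.0 and 29.8 CPM with g1. With g2 it was at 11.7 and 6.54 CPM, below every other library. Its log2 difference between g2 and g1 was -1.45 ± 0.27 (SE, adjusted p = 0.00686, edgeR), and without g2 replicate 2 it was -1.06 (adjusted p = 0.0606, edgeR). For the other genes called with g2 alone, the difference from g1 ranged from -0.82 for PFKL to 0.41 for PDP1, and none passed the test. The g2 libraries also held the lowest shares of counts from mitochondrially encoded genes, 16.8% and 12.0% against 18.3% to 23.97% in gCtl and 19.0% to 20.6% with g1. The epithelial keratin KRT20 was higher with g2 than with g1 (log2 1.65, adjusted p = 0.0408, edgeR). The other epithelial markers overlapped between the guides, among them KRT18 at 351, 262 and 522 CPM with g1 and 272 and 297 CPM with g2. The part of KRT20 or of the mitochondrial share in these results was not tested.

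**Figure D5:**
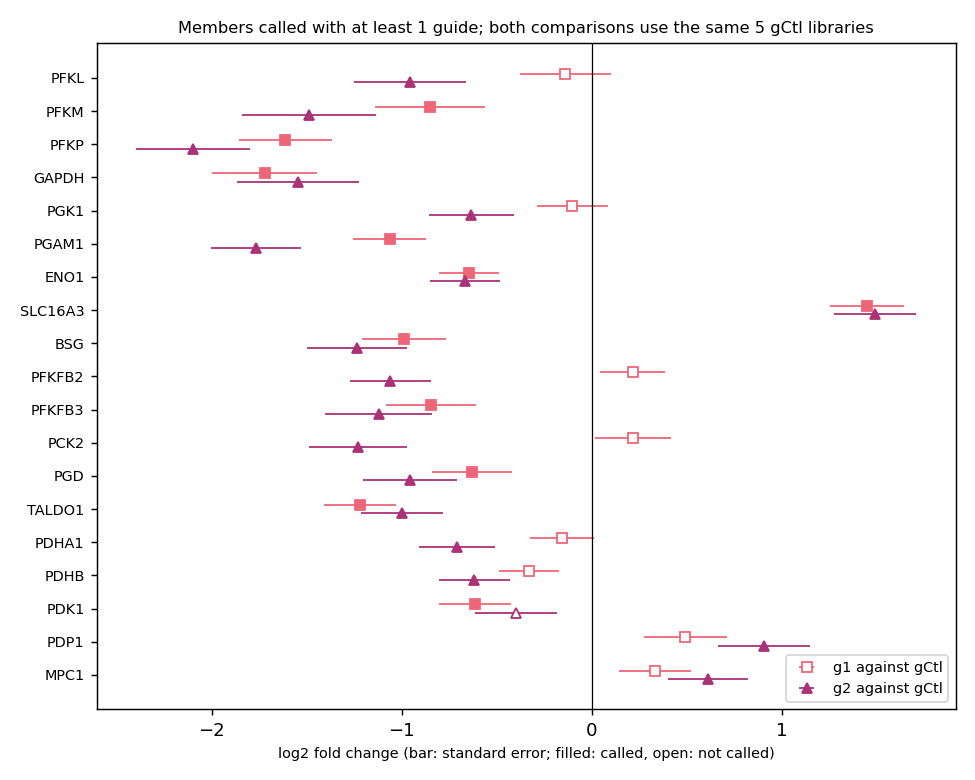
Log2 fold change (x axis, point with SE as bar) against the same 5 gCtl libraries for g1 (squares, n = 3) and g2 (triangles, n = 2) of the 19 genes called with at least 1 guide (y axis); filled points are called and open points are not. GAPDH, ENO1 and SLC16A3 take nearly the same value with both guides, and PFKFB2 and PCK2 lie on opposite sides of 0.

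A further list of 46 genes of the same pathways held 27 that passed the filter. Of these, 5 were lower and 3 higher in the libraries labelled knockdown, 4 and 5 with g1, and 6 and 3 with g2, and their pooled median was -0.05. Lower genes made up 18.5%, 14.8% and 22.2% of the 27, where the shares over all tested genes were 11%, 9.91% and 13%, and higher genes made up 11.1%, 18.5% and 11.1%, where they were 8.14%, 6.81% and 10.7%. The lower genes in the pooled comparison included MDH2 (log2 -0.81) and GOT2 (log2 -1.004), the mitochondrial partners of MDH1 and GOT1 in the malate-aspartate shuttle, whose cytosolic forms were not called. PGM1, which links glycogen to glycolysis, was lower (log2 -1.28), as were the glucose transporter SLC2A3 (log2 -1.43) and the malic enzyme ME3 (log2 -0.72). The higher genes included PGM2L1 (log2 1.05) and LDHC (log2 1.23). RBKS (log2 0.63) and the mitochondrial carrier gene SLC25A11 (log2 0.63) were called higher with g1 only, and SLC25A13 (log2 -0.77), of the aspartate-glutamate carrier, and SLC37A4 (log2 -0.63) lower with g2 only. Between the guides SLC2A3 (log2 -1.30) and SLC37A4, the transporter of glucose phosphate into the endoplasmic reticulum (log2 -0.98), were lower with g2 than with g1.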

How the data were processed

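The 10 libraries were QuantSeq 3′ single-end libraries of polyadenylated RNA. The authors pseudoaligned the reads to GENCODE transcripts with kallisto and deposited estimated counts per transcript, not normalized and not pooled. At least 75.0% of the values above 0 in each library were fractional, so the estimated counts were summed per gene and rounded here. Genes with a protein-coding transcript and over 3 RPM in at least 20% of libraries were fitted with edgeR 4.0.16 in R 4.3.3 (TMM, quasi-likelihood test), with g1 and g2 as 1 group and, separately, as 2. Adjusted p is Benjamini-Hochberg over 11640 genes, and calls also needed a fold of 1.5. The fits were tested on simulated data. Ratios were compared by exact permutation tests in scipy 1.17.1. TPM were computed here from the annotated transcript lengths. Gene positions are those of GENCODE on GRCh38.

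The genes, lists and tests were chosen with earlier results of these data known, the lower GAPDH among them. Every gene of the list is accounted for. Values in every library are given for GAPDH, for 7 neighbouring steps and for genes called in the pooled comparison or between the guides. Genes called with 1 guide only are named, and the rest are given by ranges and counts, except PDK4, whose values by library were added after they were seen. Of the further list only called genes are named, and 1 called gene is not reported here. Alternatives were limma 3.58.1, DESeq2 1.42.0, other scalings, filters and pseudocounts, and leaving out each library. Depth sets the precision of low genes, and counting intervals were not given because the counts are estimates. The strand setting of the counting is not given in the sources used here.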

Additional observations from a re-analysis of the deposited data

Results flagged for a closer look

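In 7 of 86 gene and group combinations tested, the highest or lowest of 5 libraries stood apart from the other 4 by more than 0.71 of the range of the group (Dixon's criterion), where chance gives about 1 in 20. In gCtl, GPI was low in replicate 3 at 135 CPM against 174 CPM or more in the others, a gap of 0.77 of the range. SLC16A3 was high in gCtl replicate 5 at 10.1 CPM against at most 7.41 CPM, a gap of 0.745, and TKT was high in the same library at 201 CPM against at most 175 CPM, a gap of 0.714. PGD was high in gCtl replicate 2 at 47.7 CPM against at most 32.9 CPM, a gap of 0.769. Among the 5 libraries labelled knockdown, PFKP was high in g1 replicate 3 at 14.8 CPM against at most 8.83 CPM, a gap of 0.763. PGD was high in g1 replicate 1 at 29.0 CPM against at most 19.4 CPM, a gap of 0.799, and PGK1 was low in g2 replicate 2 at 72.4 CPM against 144 CPM or more, a gap of 0.824.

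Between the guides, the direct test found PFKFB2 (log2 difference of g2 from g1 -1.27) and PCK2 (-1.45) to differ. In both, the g1 libraries were not called against gCtl and the g2 libraries were lower.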

How the results depend on the processing

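No paired analysis was possible because the labels carry no replicate numbers, and the numbers used here follow the order of listing. GAPDH, PFKP, PGAM1, SLC16A3 and TALDO1 kept their calls in all 22 alternatives run for the pooled comparison, with GAPDH between -1.83 and -1.33 on the log2 scale. With the test against a fold of 1.5 (glmTreat), genes of the list called fell in number from 11 to 5 in the pooled comparison, from 11 to 4 with g1, from 18 to 7 with g2 and from 2 to 0 between the guides. Calls over all 11640 tested genes fell from 2232 to 488, from 1947 to 506, from 2756 to 802 and from 579 to 92 in the same order. Between the guides edgeR gave 2448 of the 11640 genes an unadjusted p under 0.05. PFKM, BSG, PFKFB3, PGD, ENO1, PDP1, PFKFB2 and PCK2 lost their calls with glmTreat. For these genes a change beyond a fold of 1.5 was thus not shown given their spread. Leaving out 1 library at a time gave 10 to 11 calls pooled, 7 to 13 with g1 (7 without gCtl replicate 2 or 4), 9 to 18 with g2 (9 without g2 replicate 2) and 1 to 5 between the guides (5 without g2 replicate 1, 4 without g1 replicate 3, 1 without g2 replicate 2). Calls over all tested genes also moved in these fits, from 1701 to 2424 pooled and from 1249 to 2260 with g1. Without a gCtl or g1 library they ranged from 2274 to 2936 with g2 and from 267 to 666 between the guides. A fit without a g2 library leaves 1 library in that group, so its counts with g2 are no result about the list. With only the groups compared in the fit, 1 gene of the list was called between the guides, against 172 of 11629 genes. PCK2 was not called there (adjusted p = 0.0527, edgeR). The difference of ALDOA turned positive when trends on transcript length and GC content were removed (0.055) and without gCtl replicate 1 (0.04), gCtl replicate 2 (0.02), g1 replicate 3 (0.003) or g2 replicate 2 (0.064), and ranged from -0.16 to 0.06 over the libraries left out. That of TPI1 turned positive with those trends removed (0.12). PKM reached a call with library totals (-0.61), with limma (-0.61), without g1 replicate 1 (-0.59) and with no fold minimum. The causes were not tested. Scaling by library totals in place of TMM moved the median of all genes to -0.07 in the pooled comparison and -0.16 with g2, and the calls over all genes from 1284 lower and 948 higher to 1558 and 686 pooled, where the list had 11 lower and 1 higher. The 6 ratio results and the absence of one for PGAM1 kept their side of the threshold in 13 alternatives each, with a highest adjusted p of 0.037 for the 6 (exact permutation). LHFPL3-AS2 differed by 0.29 to 0.63 without each library in turn. The tested genes RPIA, PGLS, HK2, PDK2, PDK3 and G6PC held 1 to 47 counts per library, where counting error is largest.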
